A study of Homo sapiens with 8 samples.

Results

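Replication-dependent histone genes encode the linker histone H1 and the core histones H2A, H2B, H3 and H4 that package newly copied DNA. Their reads were counted here in AB8/13, an immortalised line of human podocytes, the filtering cells of the kidney, which was grown at 33 °C and differentiated at 37 °C. A gene was included when its row was protein-coding and carried the symbol H1-1 to H1-6, or H2AC, H2BC, H3C or H4C followed by a number. That gave 69 of the 60564 genes in the table, made up of 6 H1, 17 H2A, 18 H2B, 13 H3 and 15 H4 genes. Of these, 55 lie on chromosome 6, 13 on chromosome 1 and 1 on chromosome 12. Replacement histones, histone pseudogenes and H2BC12L, a copy on chromosome 21, fell outside the rule.

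The knockdown group held 4 libraries of cells transfected with an shRNA against ATOH8, a transcription factor of the bHLH family. As control, 4 libraries came from cells transfected with a non-targeting shRNA. All cells received lipid transfection and spent 5 days at 37 °C before RNA was taken, and all libraries were made from poly(A)-enriched RNA with a directional kit. Neither the number of shRNAs nor whether the replicates came from separate transfections is given in the labels, so a p-value here reflects library-to-library spread that may be partly technical. ATOH8 had 51, 71, 61 and 53 counts in knockdown libraries, against 175, 160, 122 and 128 in control libraries, with a log2 fold change of -1.26 (edgeR SE 0.127, adjusted p = 1.78e-09). Of the podocyte markers, NPHS1 (nephrin) was near 0, with 2 to 6 counts in knockdown and 0 to 2 in control libraries, and WT1 had 108 to 147 counts in knockdown and 112 to 167 in control libraries. Library totals ran from 21108695 to 27109043 counts.

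Most mRNAs end in a poly(A) tail, whereas replication-dependent histone mRNAs end just after a short stem-loop, which the protein SLBP binds. Their synthesis is tied to S phase, when NPAT and cyclin E activate the histone gene clusters, and the mRNAs are degraded when DNA synthesis stops. Some of these genes also yield polyadenylated transcripts that run past the stem-loop, a form known from differentiating cells. Poly(A)-enriched libraries capture that form and largely miss the stem-loop form, so the values below concern RNA that passed poly(A) enrichment and are not total histone mRNA.

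The sequence that marks this class was looked for on the sense strand of GENCODE 29 transcripts, as the 16-base histone stem-loop pattern, a stem of fixed and variable letters closed over a loop rich in T. It was present in 31 of 67 members with a transcript model (46.3%) and in 105 of 19820 other protein-coding genes (0.53%). On the opposite strand it was found in 1 member (1.49%) and in 112 other genes (0.565%). The models of 32 members end at the stop codon and cannot hold it, and 31 of the 35 that continue further do. The stem-loops of members whose values are described below are given 5′ to 3′ as cDNA letters, with the pattern in capitals and 5 bases on either side.
H2AC6: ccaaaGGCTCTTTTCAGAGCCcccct
H2AC11: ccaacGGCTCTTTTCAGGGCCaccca
H2BC5: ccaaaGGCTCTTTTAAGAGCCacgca
H3C6: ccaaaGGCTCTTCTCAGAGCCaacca
H3C10: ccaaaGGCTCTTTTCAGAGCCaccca
H4C8: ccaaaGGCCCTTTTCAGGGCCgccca
H4C14: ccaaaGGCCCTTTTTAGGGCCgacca

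The form shown for H3C10 was shared by 17 members, namely 6 H2A, 8 H2B and 3 H3 genes. The H4 genes carried their own stem, in the form of H4C8 in 5 members and of H4C14 in 3. In 30 of the 31 stem-loops the stem letters paired completely, and H2AC11 was the exception. Annotated transcripts ran well beyond the stem-loop in several members: by 1128 bases in H2AC6, 1862 in H3C6, 1655 in H4C8, 769 in H3C10 and 1167 in H4C14.

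Histone promoters also share short elements, which were counted in RefSeq promoters (GRCh38.p14, 250 bases before to 50 bases after the start, both strands) for 64 members and 27305 promoters in all. TATAAA, the TATA box, was in 65.6% of member promoters and 11.95% of all promoters. CCAAT was in 84.4% of member promoters and 35.7% of all. The octamer ATTTGCAT, the letters that POU2F1 (Oct-1) is known to bind, was in 40.6% of member promoters, against 1.80% of all promoters. It was in 14 of 18 H2B promoters, 11 of 16 H2A promoters and 1 of 11 H3 promoters, and in 0 of the H1 and H4 promoters. The H3 promoter is that of H3C4, whose octamer is the same site as that of H2AC7 and H2BC7. AAACACA, the H1 box, was in all 6 H1 promoters, and GGTCCG, a core of the H4 site II, was in 12 of 13 H4 promoters. In some pairs of neighbouring H2A and H2B genes that are transcribed away from each other, both promoters hold the same octamer, read in opposite orientation from each gene. Other such pairs, among them H2AC25 with H2BC26, had none in these windows. The octamer is in capitals in these windows, taken from the H2B strand, which is the minus strand in each case.
H2BC4 with H2AC6 (chr6:26124034-26124057): catacctcATTTGCATagctctgc
H2BC11 with H2AC11 (chr6:27132827-27132850): ttcaccttATTTGCATaagcgatt
H2BC8 with H2AC8 (chr6:26216721-26216744): aattctttATTTGCATgaaaggcc

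A match is a description of these letters and not evidence of binding. Both genes of the H2BC11 and H2AC11 pair and of the H2BC8 and H2AC8 pair rose, H2AC8 being tested through its knockdown counts. H2AC6 rose and H2BC4 did not pass, and the difference between these neighbours was not tested (values below). At the other shared sites only H2BC21 was tested, and it rose. Members without an octamer in these windows rose too, among them H2BC5 and H4C8, while H2BC9, which has one, did not pass. Whether the calls follow the octamer was not tested.

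Reads of the whole family were more frequent after ATOH8 knockdown. Counts summed over all 69 genes were 2066, 2304, 2017 and 2512 in knockdown libraries, against 1255, 1258, 1037 and 1191 in control libraries. Scaled to library size and given as CPM, the sum was 91.5 ± 5.83 in knockdown and 47.4 ± 1.31 in control libraries (SD, n = 4 each), a ratio of 1.93. Every knockdown library lay above every control library. The 3 genes with the most counts, H2AC6, H2BC12 and H1-2, held 47.7% of member counts, and without them the sum was 49.6 ± 3.87 CPM in knockdown and 23.1 ± 0.382 CPM in control libraries, a ratio of 2.15. In bulk RNA, more cells that express a gene and more RNA per cell cannot be told apart.

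The 5 classes shared this direction. H1 genes summed to 11.6, 11.6, 11.8 and 14.1 CPM in knockdown libraries, against 6.11, 6.83, 7.08 and 6.40 CPM in control libraries, a ratio of 1.86. Nearly all of this sum was H1-2, at a mean of 12.1 CPM in knockdown and 6.52 CPM in control libraries. The other H1 genes had at most 4 counts in a library, with more in knockdown for H1-3 and H1-4 and fewer for H1-1, H1-5 and H1-6. H2A genes summed to 25.8 ± 2.07 CPM in knockdown and 15.4 ± 0.956 CPM in control libraries, a ratio of 1.67. For H2B the sums were 30.8 ± 1.21 CPM in knockdown and 16.7 ± 0.809 CPM in control libraries, a ratio of 1.84. The ratios were larger for H3, at 6.99 ± 0.70 CPM in knockdown and 2.72 ± 0.358 CPM in control libraries (ratio 2.57), and for H4, at 15.6 ± 1.11 CPM in knockdown and 5.96 ± 0.203 CPM in control libraries (ratio 2.62). In none of the 5 classes did the groups overlap. Whether the ratios differ between classes was not tested.

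**Figure D1:**
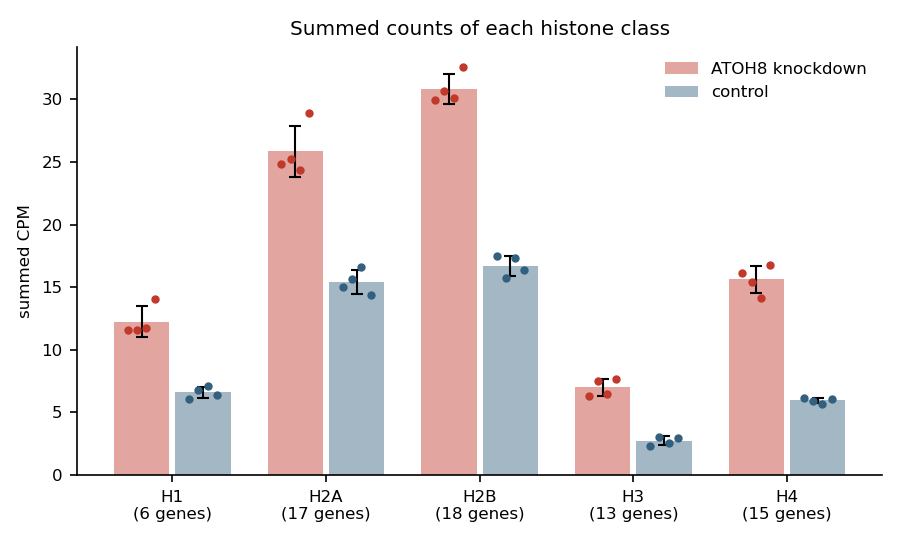
Summed CPM of each histone class in every library, ATOH8 knockdown left of control, with points for libraries, bars for the mean and whiskers for the SD of 4 libraries. In all 5 classes the knockdown points lie above the control points, as in H4 with a mean of 15.6 against 5.96 CPM.

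Single genes were tested with edgeR's quasi-likelihood test, with p-values adjusted over all 16884 genes that had enough counts and 0.05 as the threshold. Of the 69 members, 23 had enough counts. Of these 17 rose, 0 fell and 6 did not pass. Across all genes tested, 25.2% were higher and 25.9% lower in knockdown. At an unadjusted p under 0.05 the count of lower members was also 0, and DESeq2 called 0 lower. The median log2 fold change of the 23 was 0.95, against -0.00 over all genes tested, and single values ranged from -2.18 to 3.03. The 23 include members tested through their knockdown counts (next paragraph), so this median may lean upward. In 15 of the 23 the knockdown libraries all lay above the control libraries, and in the other 8 the groups overlapped. Of all genes tested, 22.4% had knockdown libraries that all lay above control and 23.2% had them all below.

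A gene could reach the test through counts in 1 group alone. Entry through knockdown counts favours rises, and entry through control counts favours falls. In 15 of the 23 all 4 control libraries reached the minimum, and of these 11 rose and 4 did not pass. Among these 15, H4C15 reached it in 2 knockdown libraries. The other 6 that rose were H2AC25, H2AC8 and H2BC18, which reached it in 0 control libraries, H2BC6 in 1, and H2BC15 and H3C10 in 3. Without any filter on low counts 60 members could be tested, and 23 rose while 0 fell, against 13.4% higher and 13.1% lower among the 33952 genes in that fit. The 23 include H3C14 and H3C15, which had the same count in each library, so their calls are not separate.

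**Figure D2:**
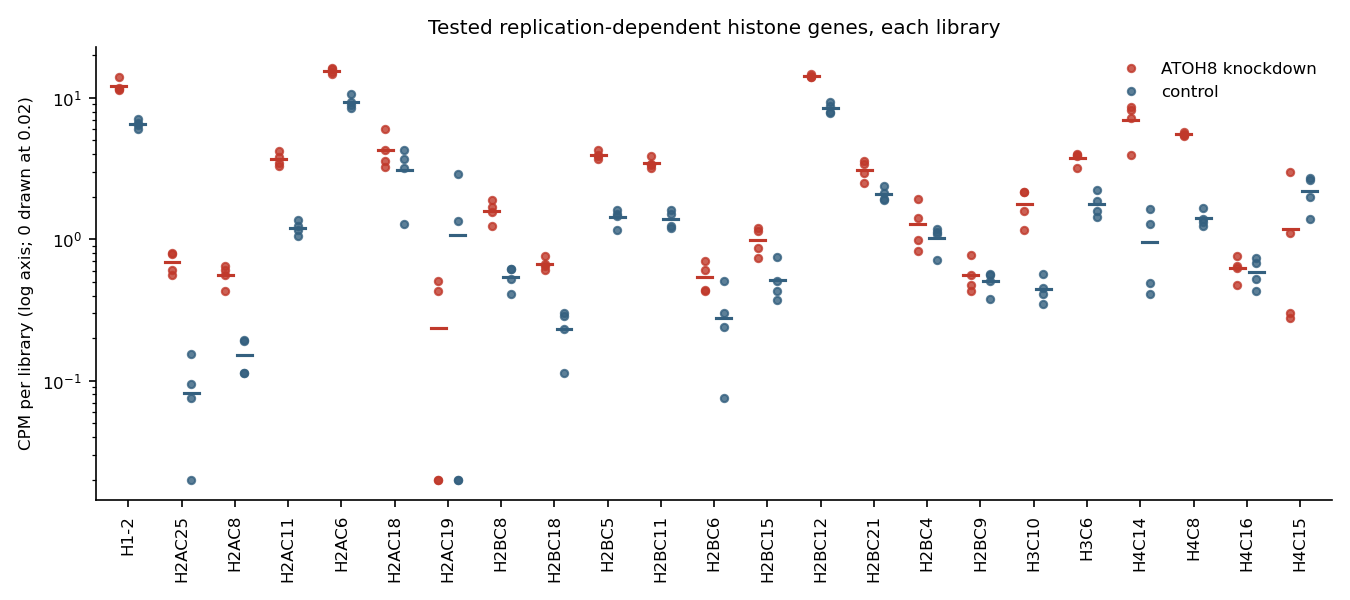
CPM of the 23 tested members in each library on a log axis, ATOH8 knockdown left of control for each gene, with values of 0 drawn at 0.02. Short bars are group means. Most genes have their knockdown points above their control points, with the widest gap for H2AC25 at a mean of 0.686 against 0.0813 CPM.

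H1-2 (ENSG00000187837.3) is a linker histone, which binds DNA between nucleosomes, and was the 1 H1 gene with enough counts. It had 265, 293, 271 and 350 counts in knockdown libraries, against 161, 176, 148 and 165 in control libraries. All knockdown libraries were higher, with replicate 4 the highest. The level was 12.1 ± 1.21 CPM in knockdown and 6.52 ± 0.416 CPM in control libraries, a log2 fold change of 0.90 (edgeR SE 0.0853, adjusted p = 5.42e-10). H1-4 had 1 to 4 counts in knockdown and 0 to 1 in control libraries and was not tested.

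H2A and H2B form the dimers on the outside of the nucleosome core. Among 6 tested H2A genes, H2AC6, H2AC11, H2AC25 and H2AC8 rose, and H2AC18 and H2AC19 did not pass. H2AC6 (ENSG00000180573.9) had 340, 406, 353 and 411 counts in knockdown libraries, against 237, 248, 225 and 220 in control libraries. The groups did not overlap, with a log2 fold change of 0.74 (edgeR SE 0.074, adjusted p = 1.58e-09). H2AC11 (ENSG00000196787.3) had 81, 97, 76 and 105 counts in knockdown libraries, against 31, 33, 29 and 27 in control libraries. Its log2 fold change of 1.62 (edgeR SE 0.16, adjusted p = 1.31e-09) was over 3-fold on the linear scale, at 3.06.

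The steepest rise among the members came from a gene with near 0 counts in control libraries. H2AC25 (ENSG00000181218.5), which lies on chromosome 1, had 14, 20, 13 and 20 counts in knockdown libraries, against 0, 2, 2 and 4 in control libraries, and its log2 fold change was 3.03 (edgeR SE 0.446, adjusted p = 1.56e-06). H2AC8 (ENSG00000277075.2) had 15, 11, 14 and 14 counts in knockdown libraries, against 3, 3, 4 and 5 in control libraries, and its log2 fold change was 1.86 (edgeR SE 0.37, adjusted p = 0.000109). Neither gene reached the count minimum in any control library, so both were tested through their knockdown counts, and their fold changes rest on few control reads.

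H2B had the most tested genes. Of 10, 8 rose, and H2BC4 and H2BC9 did not pass. H2BC12 (ENSG00000197903.7) had 327, 365, 328 and 369 counts in knockdown libraries, against 251, 213, 185 and 201 in control libraries. All 4 knockdown libraries were higher, and the log2 fold change was 0.75 (edgeR SE 0.0735, adjusted p = 9.85e-10). Of its 50-base stretches, 25.9% occur in no other gene, and 204 are shared with H2BC12L, so reads of these copies could be exchanged.

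Other H2B genes on chromosome 6 had larger fold changes. H2BC5 (ENSG00000158373.8) had 86, 100, 90 and 107 counts in knockdown libraries, against 31, 39, 34 and 39 in control libraries, a log2 fold change of 1.46 (edgeR SE 0.151, adjusted p = 3.1e-09). For H2BC11 (ENSG00000124635.8) the counts were 74, 99, 79 and 84 in knockdown libraries, against 40, 32, 34 and 32 in control libraries, a log2 fold change of 1.32 (edgeR SE 0.159, adjusted p = 4.95e-08). H2BC8 (ENSG00000273802.2) had 39, 48, 29 and 39 counts in knockdown libraries, against 14, 11, 13 and 16 in control libraries, a log2 fold change of 1.55 (edgeR SE 0.24, adjusted p = 3.29e-06). None of these 3 genes overlapped between the groups. H2BC15 (ENSG00000233822.4) did overlap, with 17, 29, 20 and 30 counts in knockdown libraries, against 10, 20, 9 and 13 in control libraries, and its log2 fold change was 0.92 (edgeR SE 0.277, adjusted p = 0.00638).

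On chromosome 1, H2BC21 (ENSG00000184678.10) had 68, 64, 83 and 86 counts in knockdown libraries, against 63, 57, 40 and 50 in control libraries. Scaled to library size the groups did not overlap, at 3.11 ± 0.484 CPM in knockdown and 2.09 ± 0.211 CPM in control libraries, and its log2 fold change of 0.57 (edgeR SE 0.154, adjusted p = 0.00276) was the smallest among the members that rose. H2BC18 (ENSG00000203814.6) had 14, 17, 15 and 19 counts in knockdown libraries, against 8, 3, 6 and 6 in control libraries, a log2 fold change of 1.52 (edgeR SE 0.333, adjusted p = 0.000346). It too was tested through its knockdown counts alone and rests on few control reads.

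The call for H2BC6 (ENSG00000274290.2) was the least firm. It had 14, 18, 10 and 11 counts in knockdown libraries, against 8, 2, 5 and 13 in control libraries, so the groups overlapped, and the log2 fold change was 0.95 (edgeR SE 0.381, adjusted p = 0.0381). Its adjusted p was 0.176 with DESeq2 and 0.062 without a filter, and it was lost when any of 5 libraries was left out, at 0.0912 without knockdown replicate 1, 0.129 without knockdown replicate 2, and 0.0641, 0.171 and 0.0862 without control replicates 1, 2 and 3. H2BC4 (ENSG00000180596.7) had 33, 21, 23 and 48 counts in knockdown libraries, against 19, 29, 25 and 29 in control libraries (log2 0.33, edgeR adjusted p = 0.292). H2BC9 (ENSG00000275713.2) had 18, 12, 10 and 14 counts in knockdown libraries, against 15, 10, 12 and 13 in control libraries (log2 0.15, edgeR adjusted p = 0.697).

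**Figure D3:**
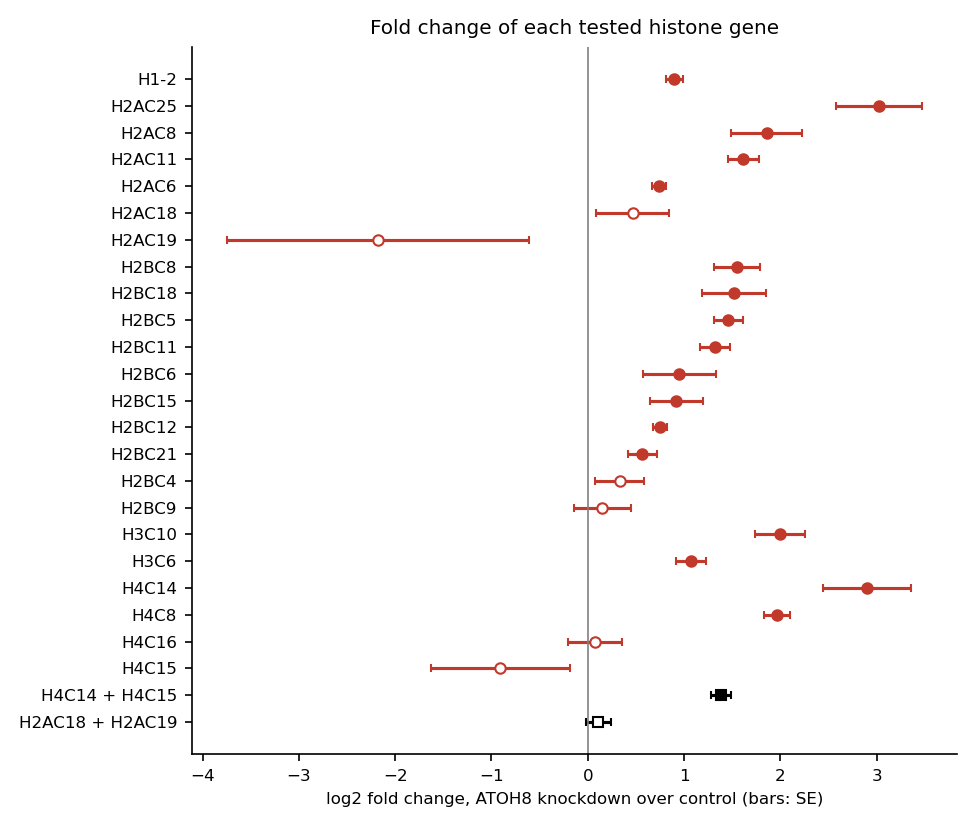
Log2 fold change of knockdown over control for each tested member with its SE, grouped by class, where filled points passed the threshold and squares at the foot are sums of near-identical copies, such as 1.38 for H4C14 with H4C15. Filled points lie to the right of 0, from 0.57 for H2BC21 to 3.03 for H2AC25.

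H3 and H4 form the tetramer at the centre of the nucleosome, and both tested H3 genes rose. H3C6 (ENSG00000274750.2) had 74, 100, 90 and 100 counts in knockdown libraries, against 42, 50, 30 and 57 in control libraries, a log2 fold change of 1.07 (edgeR SE 0.155, adjusted p = 1.24e-06). H3C10 (ENSG00000278828.1) had 37, 55, 27 and 54 counts in knockdown libraries, against 11, 12, 12 and 9 in control libraries. The groups were apart in both genes, and the log2 fold change of H3C10 was 2.00 (SE 0.261, edgeR adjusted p = 2.16e-07).

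Among the 4 tested H4 genes, H4C8 and H4C14 rose. H4C8 (ENSG00000158406.4) had 134, 137, 126 and 139 counts in knockdown libraries, against 37, 33, 28 and 43 in control libraries. Both groups were tight and far apart, at 5.52 ± 0.171 CPM in knockdown and 1.41 ± 0.185 CPM in control libraries, and its log2 fold change of 1.97 (SE 0.136) had the smallest adjusted p among the members, 7.14e-13 by edgeR. All of its 50-base stretches were unique to it. H4C16 (ENSG00000197837.3), the member on chromosome 12, had 15, 16, 11 and 19 counts in knockdown libraries, against 18, 14, 9 and 19 in control libraries (log2 0.07, edgeR adjusted p = 0.852). Its groups overlapped fully.

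H4C14 and H4C15 are near-identical copies on chromosome 1, and their printed stem-loop window is the same. H4C14 (ENSG00000270882.2) had 191, 183, 92 and 215 counts in knockdown libraries, against 11, 13, 27 and 42 in control libraries, and its log2 fold change was 2.90 (edgeR SE 0.457, adjusted p = 0.00184), or 7.46-fold. H4C15 (ENSG00000270276.2) had 7, 28, 70 and 7 counts in knockdown libraries, against 72, 70, 42 and 36 in control libraries, with a log2 fold change of -0.91 (edgeR SE 0.722, adjusted p = 0.347). Without knockdown replicate 3 it was -1.94 with an edgeR adjusted p of 0.00615. Only 2.46% of the 50-base stretches of H4C14 and 2.82% of those of H4C15 occur in no other gene, so the split of reads between them is uncertain.

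Summed, the pair had 198, 211, 162 and 222 counts in knockdown libraries, against 83, 83, 69 and 78 in control libraries, or 8.15 ± 0.818 CPM in knockdown and 3.13 ± 0.106 CPM in control libraries. The log2 fold change of the sum was 1.38 (SE 0.105, edgeR adjusted p = 5.62e-12), or 2.61-fold, against 7.46-fold for H4C14 by itself. This sum was added after the data had been seen. With near-identical copies summed, 21 features were tested in place of 23 members, and 17 rose. Among the 17 tested members with at least 90% of their 50-base stretches in no other gene, 14 rose. These 14 include H2AC25 and H2AC8, which were tested through their knockdown counts. Of all genes tested, at any uniqueness, 25.2% were higher.

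**Figure D4:**
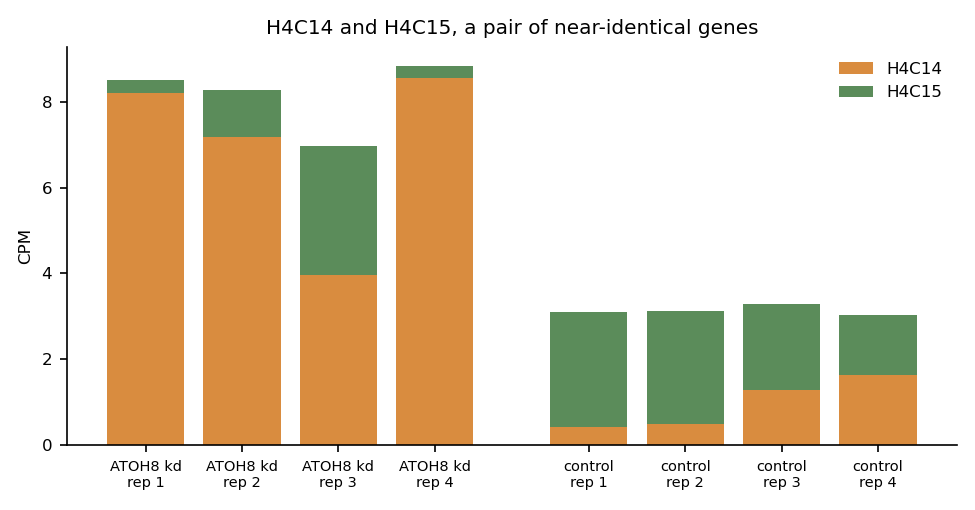
CPM of H4C14 (lower, orange) and H4C15 (upper, green) stacked in each library, ATOH8 knockdown left of control. The share of each copy differs between libraries of a group, while the full bars reach 6.97 to 8.84 CPM in knockdown and 3.03 to 3.28 CPM in control libraries.

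H2AC18 and H2AC19, another near-identical pair on chromosome 1, showed no such rise. H2AC18 (ENSG00000203812.2) had 99, 83, 83 and 152 counts in knockdown libraries, against 114, 85, 78 and 33 in control libraries (log2 0.47, edgeR adjusted p = 0.358). H2AC19 (ENSG00000272196.2) had 0, 13, 10 and 0 counts in knockdown libraries, against 0, 36, 0 and 75 in control libraries (log2 -2.18, edgeR adjusted p = 0.302). Their sum was 99, 96, 93 and 152 in knockdown libraries, against 114, 121, 78 and 108 in control libraries. It overlapped between the groups, with a log2 fold change of 0.11 (edgeR SE 0.132, adjusted p = 0.512).

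Of the 46 members without enough counts, 9 were at 0 in all 8 libraries and 37 had at least 1 count, with at most 15 in a library. More counts fell in knockdown libraries for 24, fewer for 11 and the same number for 2. Together they had 406 counts in knockdown and 210 in control libraries. Scaled to library size, the sums were 4.47, 3.5, 4.05 and 4.74 CPM in knockdown libraries, against 2.21, 2.51, 1.90 and 1.71 CPM in control libraries, a ratio of 2.01 with no overlap. Neither this split nor this ratio was computed over all genes without enough counts. Knockdown libraries had more genes with a count in the whole table (values below), so a lean of this kind may not be particular to the members. H3C4 had 9, 13, 10 and 10 counts in knockdown libraries, against 3, 0, 4 and 0 in control libraries. H4C12 had 6, 14, 12 and 4 counts in knockdown libraries, against 9, 14, 5 and 8 in control libraries. H3C14 and H3C15 had the same count in each library, 4, 4, 4 and 6 in knockdown and 0, 2, 0 and 2 in control libraries.

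Members were also divided by their annotated transcripts. A model was called long where it is spliced, continues at least 100 bases past the stem-loop, or spans at least 1000 bases in RefSeq. The 28 members with a long model held 77.4% of member counts, and 19 of them had enough counts, of which 15 rose. Some of these 15 were tested through their knockdown counts. Of all genes tested, 25.2% were higher. The 41 with a short model held 22.6% of counts, and neither share is scaled to transcript length. Of these, 4 were tested, H1-2, H2AC8, H2AC18 and H2AC19, and 2 rose, H1-2 and, through its knockdown counts, H2AC8. Short-model genes summed to 19.1 ± 2.33 CPM in knockdown and 12.2 ± 0.513 CPM in control libraries, a ratio of 1.56. Most of this sum was H1-2, at 12.1 CPM in knockdown and 6.52 CPM in control libraries. Counts per gene do not show where in a transcript the reads fell, so neither the length nor the tail of the RNA was measured.

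The genes that make, process and degrade histone mRNA are read against the 25.2% of all genes tested that were higher and the 25.9% that were lower. Of 11 transcription factors and activators, 2 rose and 5 fell. NPAT, the coactivator of histone transcription, averaged 46.7 ± 3.1 CPM in knockdown and 45.4 ± 1.63 CPM in control libraries (log2 0.04, edgeR adjusted p = 0.492). HINFP, which activates H4 genes, rose by a log2 of 0.30 (SE 0.0535, edgeR adjusted p = 3.19e-05), and E2F1 rose by 0.26. CASP8AP2, a partner of NPAT, fell by 0.26 on the log2 scale (SE 0.0419, edgeR adjusted p = 6.39e-06). POU2F1 fell to 28.7 ± 1.28 CPM in knockdown, against 50.2 ± 1.92 CPM in control libraries (log2 -0.81, SE 0.0457, edgeR adjusted p = 8.68e-15). Cyclin E genes fell too, CCNE1 with a log2 of -0.40 and CCNE2 with -0.39.

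Of 17 genes for 3′ end processing, 2 rose and 8 fell. The falls with the smallest edgeR adjusted p were SNRPE with a log2 of -0.42 (9.17e-09), SNRPB with -0.29 (9.26e-08) and CPSF2 with -0.26 (2.73e-07). SLBP averaged 108 ± 1.37 CPM in knockdown and 113 ± 3.0 CPM in control libraries, and did not pass (log2 -0.08, SE 0.0329, edgeR adjusted p = 0.0566). LSM10, a part of the U7 particle that guides the cleavage, fell by 0.16 on the log2 scale with an edgeR adjusted p of 0.0443, which missed the threshold under 10 of 15 alternatives. LSM11, its partner, did not pass (log2 0.10, edgeR adjusted p = 0.101). ZNF473, which binds the U7 particle, rose by a log2 of 0.30 (SE 0.061, edgeR adjusted p = 0.000156), and SYMPK, a scaffold of the cleavage complex, rose by 0.19. Of 10 genes for histone mRNA decay, 2 rose and 3 fell, among them UPF1 with a log2 of 0.16 and ERI1, which trims the stem-loop end, with -0.18.

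Replication-independent histones are variants and linker histones, most of whose mRNAs are polyadenylated. Of 12 tested, 7 fell, 1 rose and 4 missed the threshold. The median log2 was -0.17, and their summed level was 1227 to 1279 CPM in knockdown and 1411 to 1476 CPM in control libraries. H3-3B fell to 220 ± 5.01 CPM in knockdown, against 305 ± 9.26 CPM in control libraries (log2 -0.48, SE 0.0315, edgeR adjusted p = 2.98e-13). CENPA, the H3 variant of centromeres, had a log2 fold change of -0.70, and H2AZ2 had -0.29. MACROH2A1 was the 1 that rose, by a log2 of 0.09 (edgeR adjusted p = 0.0308), with overlapping groups and a call that missed the threshold under 5 of 15 alternatives. Beside these sums, the 69 replication-dependent members together took 86.8 to 99.99 CPM in knockdown and 46.2 to 49.3 CPM in control libraries. Of 19 histone chaperones, 6 rose and 8 fell, with CABIN1 at a log2 of 0.29 and ANP32E at -0.72.

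Among 22 tested S phase genes there were 5 rises and 6 falls, 11 did not pass, and the median log2 was 0.00, shares near the 25.2% higher and 25.9% lower among all genes tested. MCM5, a subunit of the replicative helicase, rose by a log2 of 0.30 and TYMS, which makes thymidylate, by 0.22, whereas MCM6 had -0.46 and CCNA2, the cyclin of S phase and G2, had -0.87. Most general cleavage and polyadenylation factors did not pass, with 2 rises and 1 fall among 16 tested, namely CPSF1 at 0.38 and CPSF4 at 0.20 against WDR33 at -0.20. The part of cell cycle state in the histone values was not tested.

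RNAs that lack a poly(A) tail give a measure of RNA that escaped enrichment. Of 27 such genes in the table, 10 were at 0 in all libraries, 15 had fewer counts in knockdown and 1 had more. Their summed level was 20.3 to 29.2 CPM in knockdown and 28.2 to 46.4 CPM in control libraries. The 2 with enough counts fell, RN7SL1 with a log2 of -0.87 and RN7SL2 with -0.64. The call for RN7SL2 missed the threshold under 9 of 15 alternatives and that for RN7SL1 under 1. The highest knockdown sum was above the lowest control sum.

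Markers of other cell types moved with the groups as well. Of 3 tested mesangial markers all rose, with a summed level of 233 to 264 CPM in knockdown and 118 to 126 CPM in control libraries. POSTN held most of that sum, and ITGA8 had 1 count in knockdown and 0 in control libraries in all. The 6 leukocyte markers summed to 2.15 to 2.59 CPM in knockdown and 1.24 to 1.86 CPM in control libraries. Of the 2 tested, ITGAM rose, at 1.14 ± 0.297 CPM in knockdown and 0.190 ± 0.0338 CPM in control libraries (log2 2.56, edgeR adjusted p = 1.02e-07), and CD14 did not pass, at 1.06 ± 0.191 CPM in knockdown and 1.21 ± 0.256 CPM in control libraries. PTPRC, which defines leukocytes, had 1 count in all knockdown and 3 in all control libraries. The 6 endothelial markers summed to 1.55 to 1.91 CPM in knockdown and 0.776 to 0.976 CPM in control libraries, with TEK higher and CDH5 not past the threshold, while EMCN was at 0 throughout and PECAM1 had 0 counts in knockdown and 1 in control libraries. The 6 tubule markers summed to 2.50 to 2.83 CPM in knockdown and 4.50 to 7.17 CPM in control libraries. AQP1 fell to 1.14 ± 0.161 CPM in knockdown, against 5.19 ± 0.927 CPM in control libraries, and CUBN rose, at 1.07 ± 0.133 CPM in knockdown and 0.564 ± 0.295 CPM in control libraries, with overlapping groups (edgeR adjusted p = 0.00967), a call that missed the threshold under 2 of 14 alternatives. LRP2, a defining tubule marker, had 1 count in all knockdown and 1 in all control libraries. Knockdown libraries also had more genes with a count, 25426 to 26071, against 24154 to 25081 in control libraries. The part of these differences in the histone values was not tested.

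**Figure D5:**
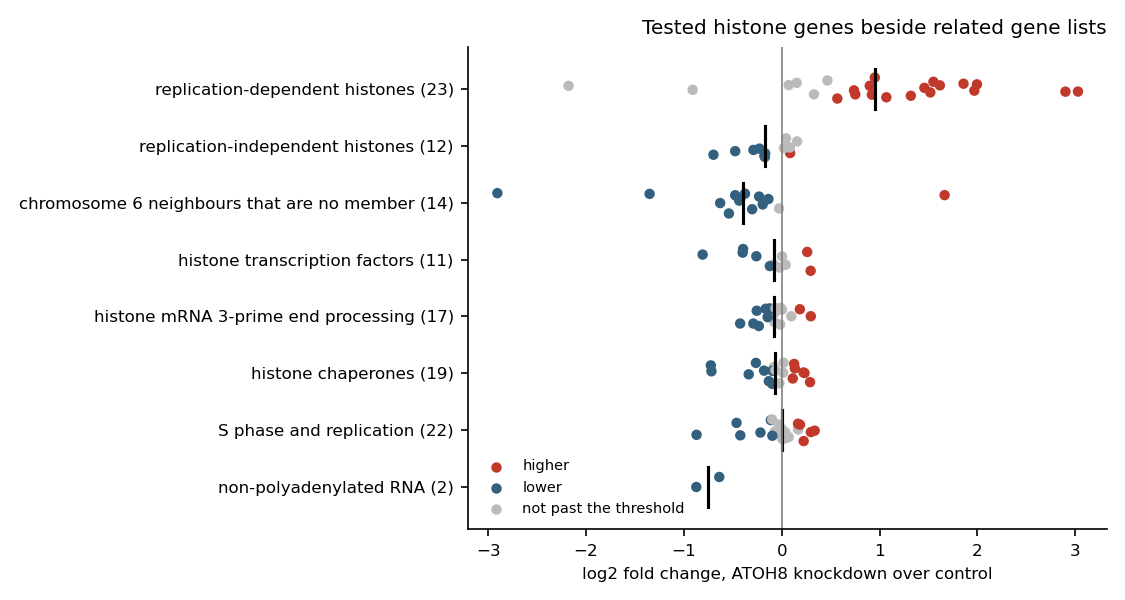
Log2 fold change of knockdown over control for the tested genes of each list, where a point is a gene (red higher, blue lower, grey not past the threshold) and the vertical bar is the median of the list. The replication-dependent members have a median of 0.95, which includes members tested through their knockdown counts and may lean upward. The other lists shown have medians near or below 0, such as -0.17 for replication-independent histones and -0.40 for chromosome 6 neighbours. Marker and histone pseudogene lists are not drawn. Their medians ran from -0.63 for proximal tubule markers to 1.18 for leukocyte markers, with 0.75 for the 2 tested pseudogenes.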

How the data were processed

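The deposited table holds whole-number counts per gene, with 1 column per library, and the values were used as deposited by the authors. The submitters' processing notes list the build hg19 with STAR, featureCounts, FastQC and DESeq2. For versions, annotation, strand setting and multi-mapping reads nothing is stated there, so genes that overlap an antisense partner or share sequence are uncertain. From 60609 rows, 1 with a missing cell and 44 pseudoautosomal copies at 0 were left out. Symbols came from a gene name table for 60295 genes and from GENCODE 29 for 250.

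Genes were filtered with filterByExpr by group (minimum count 10), scaled by TMM and compared with edgeR 4.0.16 (limma 3.58.1, R 4.3.3) by the quasi-likelihood F test with robust dispersions. P-values were adjusted by the Benjamini-Hochberg method over all genes tested. The SE was derived from the F statistic, and values are mean ± SD over 4 libraries. CPM were computed here from the deposited counts and TMM factors. Sequences came from GENCODE 29 transcripts and RefSeq promoters, and uniqueness was counted in 50-base stretches of these transcripts. In simulated data with 16672 genes tested, 170 calls held 8 unchanged genes, and 34, 33, 47 and 48 of 50 genes changed 1.3-, 1.5-, 2- and 3-fold were recovered. The simulation changed 200 genes and gave each gene the trended dispersion. In the data 25.2% of genes were called higher and 25.9% lower, and single genes can vary beyond the trend, so these figures may not carry over.

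The members, lists and tests were chosen with earlier results of these data known. Every tested member was described, along with ATOH8, SLBP, NPAT, LSM10, LSM11, ZNF473, CASP8AP2 and examples among up to 3 rising and 3 falling genes per list with the smallest adjusted p. Alternatives were DESeq2 size factors, no filter, a filter of 1 CPM in 4 libraries, a block for the replicate number, each library left out, and DESeq2 1.42.0 with its Wald test. Near-identical copies summed, a mean of at least 10 counts, and the lists of neighbours, pseudogenes and single-exon genes were added after the data had been seen. No pair of libraries within a group agreed within sampling noise, with a chi-square per gene from 1.95 to 4.48.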

Additional observations from a re-analysis of the deposited data

Results flagged for a closer look

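Among the 78 genes described here, the 156 groups of 4 libraries were examined for a library that stood apart from the others of its group, measured as its gap to the nearest library divided by the range of the group, with Dixon's critical value for 4 samples as the limit. Chance gives about 1 in 20 groups, and 8 of 156 passed. Among the histone genes, knockdown replicate 4 stood high for H1-2 (0.894) and knockdown replicate 1 stood low for H3C6 (0.867). Among other genes, knockdown replicate 1 stood high for POU2F1 (0.848) and for UPF1 (0.838), and knockdown replicate 4 stood low for PDGFRB, a mesangial marker (0.886). In control libraries, replicate 1 stood high for KIRREL1, a podocyte marker (0.862), and low for RN7SL2 (0.961), and replicate 3 stood low for WDR33 (0.862).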

How the results depend on the processing

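Between 12 and 23 members rose under the 15 alternatives, and 12 to 17 of these were among the 17 reported. The lower figure came with the filter of 1 CPM in 4 libraries, which tested 15 members, and the upper one without a filter. The count of lower members was 0 throughout, except that leaving out 1 library each gave 0 to 1, with H4C15 lower without knockdown replicate 3. With 1 library left out, the log2 fold change of H2BC9 ran from -0.039 (without knockdown replicate 1) to 0.253 and that of H4C16 from -0.0417 (without control replicate 3; -0.0322 without knockdown replicate 4) to 0.191, and the cause was not tested. Same-numbered libraries did not deviate together, with correlations of 0.0456, 0.0369, 0.00143 and 0.0574, and with the replicate block 16 members rose, H2BC6 being lost (0.053).

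Small list counts moved. Rising decay genes numbered 1 with the DESeq2 Wald test and without a filter, and 1 to 2 with 1 library left out. Rising replication-independent histones numbered 0 without a filter, 2 with 1 CPM in 4 libraries, and 0 to 2 with 1 library left out. For cleavage and polyadenylation, 5 rose with 1 CPM in 4 libraries, the replicate block gave 4 rising and 2 falling, and 1 to 2 fell with 1 library left out. Falling RNAs without a tail numbered 4 without a filter, 0 with the replicate block, and 1 to 3 with 1 library left out. Low counts limit most members: 46 of 69 were not tested, with at most 15 counts in any library.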

Other observations

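Protein-coding genes that lie among the histone genes on chromosome 6 without being members mostly fell. Of 14 tested, 12 fell and 1 rose, with a median log2 fold change of -0.40. Among all genes tested, 25.9% were lower and 25.2% higher. The list of 20 genes summed to 376 to 378 CPM in knockdown and 469 to 488 CPM in control libraries. PRSS16, a serine protease, had 4, 5, 9 and 5 counts in knockdown libraries, against 37, 58, 32 and 55 in control libraries (log2 -2.91, SE 0.292, edgeR adjusted p = 1.68e-09). HFE, which regulates iron uptake, had 221 to 287 counts in knockdown and 325 to 459 in control libraries (log2 -0.63, edgeR adjusted p = 3.81e-08). The 1 that rose, ENSG00000282988, had 42, 45, 32 and 29 counts in knockdown libraries, against 10, 9, 6 and 23 in control libraries (log2 1.66, edgeR adjusted p = 2.24e-05). It shares 362 50-base stretches with H3C4 and 337 with H2AC7, so it carries histone sequence itself.

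Of 13 histone pseudogenes of the clusters, 2 had enough counts and both rose. H2BC19P had 95, 108, 90 and 144 counts in knockdown libraries, against 73, 63, 66 and 75 in control libraries (log2 0.69, edgeR adjusted p = 0.000123). H2BC20P had 120, 135, 100 and 150 counts in knockdown libraries, against 77, 73, 65 and 83 in control libraries (log2 0.80, edgeR adjusted p = 2.93e-06). Other protein-coding genes with a single exon showed no such shift. Of 235 tested, 57 were higher and 45 lower, with a median log2 of 0.04, and 24.3% of them were higher, against 25.2% of all genes. These lists were chosen after the data had been seen.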
